A study of Mus musculus with 36 samples.

Results

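The Hippo pathway genes described here are 10 members of one signaling route in the mouse heart: the coactivators *Yap1* and *Wwtr1*, the TEAD transcription factors *Tead1*, *Tead2* and *Tead4*, the kinase *Lats2*, the TEAD cofactor *Vgll4* and the target genes *Ctgf*, *Cyr61* and *Ankrd1*. They were chosen by gene symbol, with earlier results of these data known. On the array they were read by 24 of 45101 probe sets, and they are 10 of 20701 genes with an Entrez gene ID. Hearts of OF1 (Oncins France 1) mice, an outbred strain, had been collected daily between E10.5 and E19.5, from 10-week-old adults (young adult) and from old adults. The old animals were 14 months old in the series' design text, and the paper's methods give a younger age. No animal carried an engineered allele or received an agent. Each of the 12 stages had 3 arrays, or 36 altogether. The 3 samples of E10.5 and of E11.5 mixed both sexes, and later stages had 1 female, 1 male and 1 mixed sample, so a stage's spread also holds the difference between the sexes. Values are log2 intensities, in which 1 unit is a 2-fold difference.

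The Hippo pathway is a kinase cascade that restrains organ growth. The kinases MST1 and MST2 (genes *Stk4* and *Stk3*) activate LATS1 and LATS2, and these phosphorylate YAP and its relative TAZ (gene *Wwtr1*), which are then held in the cytoplasm or degraded. Unphosphorylated YAP and TAZ enter the nucleus and bind TEAD factors at DNA, since they have no DNA-binding domain of their own, while VGLL4 competes with YAP for TEAD. In the heart, YAP with TEAD1 is known for driving the proliferation of fetal cardiomyocytes, and *Ctgf*, *Cyr61* and *Ankrd1* are the target genes most used to read its activity. The arrays measure transcript level, not phosphorylation or the place of a protein in the cell.

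TEAD factors bind the short sequence GGAATG, which reads CATTCC on the other strand. It was searched on both strands in the 250 bases before the transcription start, with starts and sequences from RefSeq (GRCm38.p6), which held an entry for 7 of the 10 members. *Ctgf*, *Tead1* and *Tead4* are without an entry in the table. The matches are shown because they lie before the starts of the targets and of regulators of the pathway itself. Each line is 30 bases of the gene's strand, 5′ to 3′, with the motif in capitals.
Ankrd1, farther site: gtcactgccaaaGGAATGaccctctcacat
Ankrd1, nearer site: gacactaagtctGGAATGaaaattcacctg
Cyr61: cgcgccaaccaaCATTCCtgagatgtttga
Wwtr1: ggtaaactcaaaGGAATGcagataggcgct
Yap1: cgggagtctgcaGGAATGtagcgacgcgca
Vgll4: cgagtggggtggGGAATGctgagaaatgcc
The 2 *Ankrd1* matches lie at chr19:36120037-36120066 and chr19:36119950-36119979 and begin 210 and 123 bases before the start. The *Cyr61* match (chr3:145650071-145650100) begins 103 bases before the start, on the opposite strand to the gene. The *Wwtr1* match (chr3:57576029-57576058) begins 136 or 170 bases before the 2 starts listed for that gene. The matches of *Yap1* (chr9:8004720-8004749) and *Vgll4* (chr6:114969268-114969297) begin 141 and 82 bases before the starts listed for them. *Vgll4* spans chr6:114860621-114970007, so its match lies inside the gene, before an inner start. All 6 genome windows are given on the minus strand, where these genes lie. *Tead2* and *Lats2* held no match in this window. Of 32851 mouse promoters of the same length, 12.6% held at least 1 match and 1.02% held 2 or more, so *Ankrd1* was in the smaller class. The AP-1 motif TGACTCA, present in 4.46% of all promoters, was in none of the 7. These are matches of letters, and binding was not measured.

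The tissue label was checked first. The cardiomyocyte genes *Tnnt2* and *Myl2* measured 12.38 and 13.47 at E10.5 and 12.48 and 13.27 in young adult. Of the 7 cardiomyocyte genes on the array, 4 were higher at E10.5 than in young adult (limma adjusted p under 0.05), 1 was lower and 2 did not pass. Their summed intensity was 40030 to 48260 at E10.5 and 28830 to 31460 in young adult. None of the 5 liver genes on the array exceeded a stage mean of 5, although the labels' extraction protocol names liver. Genes of other cells also moved with stage. The summed intensity of 6 macrophage genes was 101.9 to 110.2 at E10.5 and 1971 to 2449 in young adult. That of 6 erythroid genes was 19130 to 25490 at E10.5 and 101.7 to 178.5 in young adult. The hybridization controls, transcripts added before hybridization, were 9.68 to 10.3 at E10.5 and 12.0 to 12.4 in young adult, and the difference between the 3′ and 5′ control probe sets of *Gapdh* lay at 1.39 to 2.25 in young adult, against 2.19 to 3.95 at E10.5 and 3.72 to 4.13 at E19.5. The part of these shifts in the results below was not tested beyond the covariate fits given with the processing. In whole tissue, fewer cells of a type and less RNA per cell cannot be told apart.

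**Figure D1:**
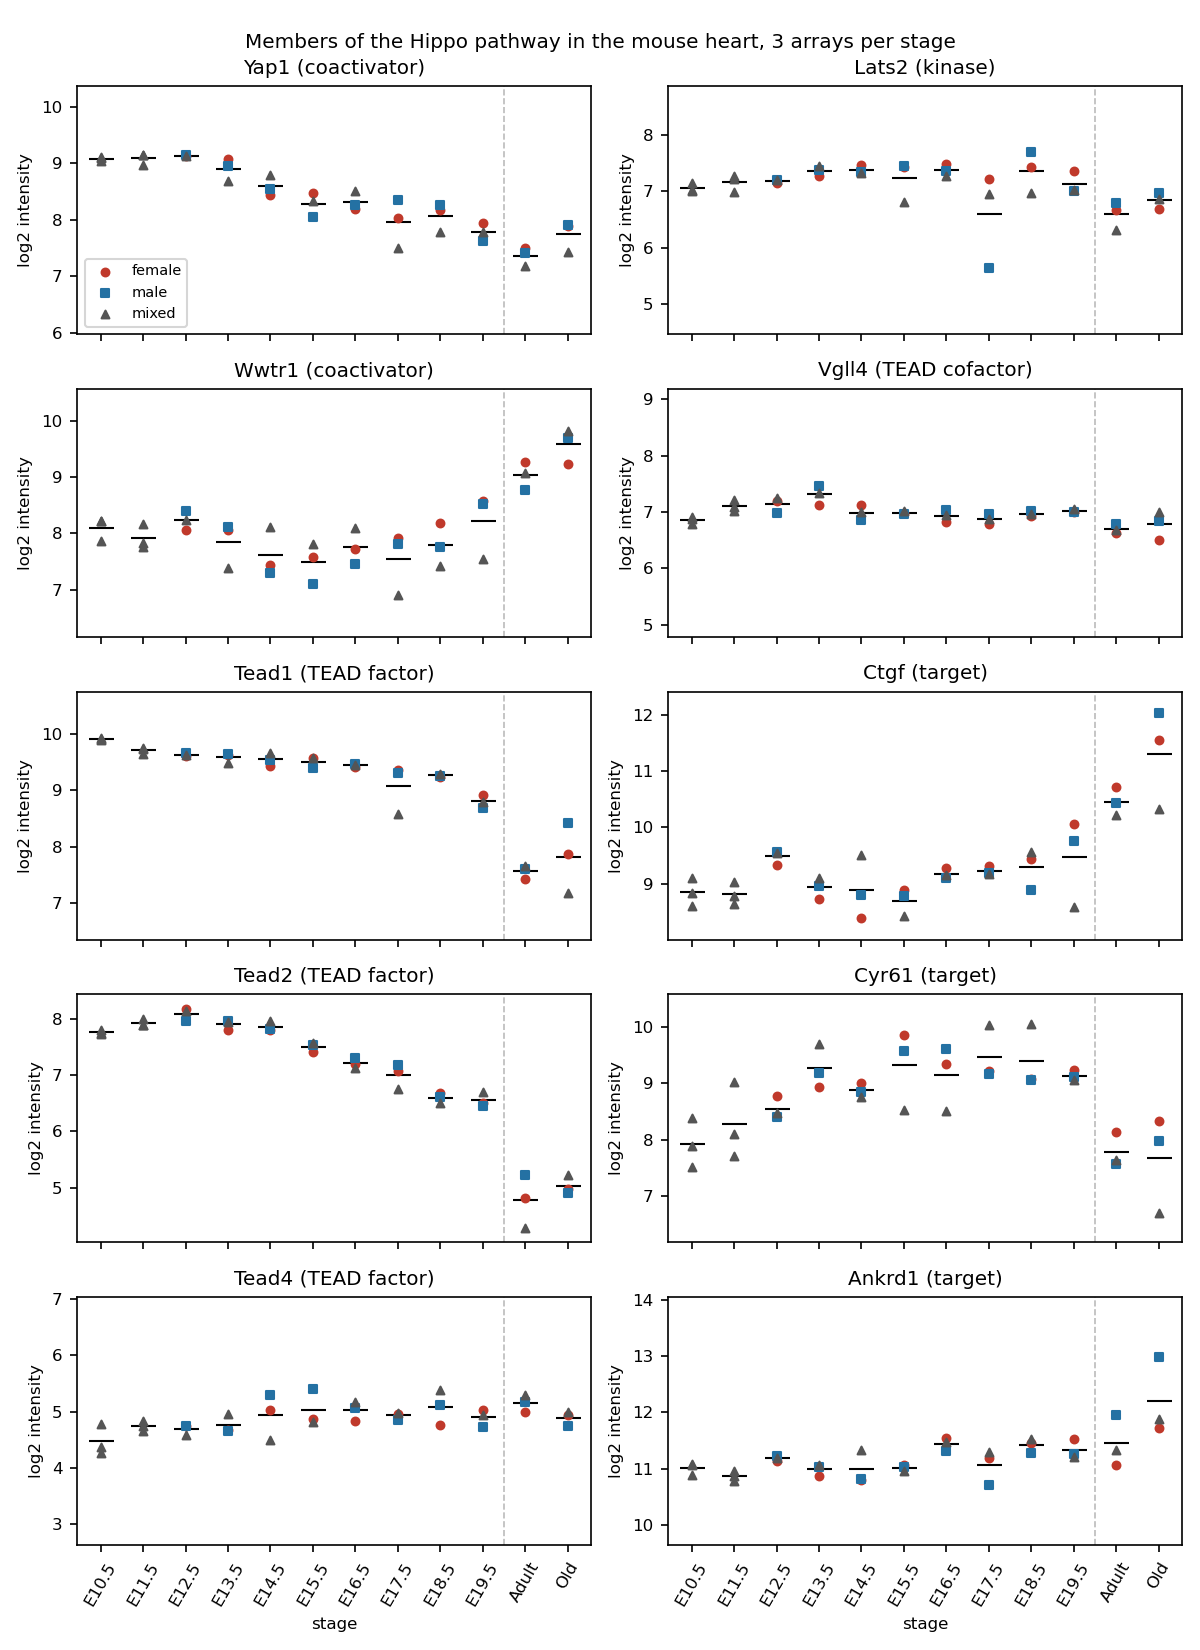
Log2 intensity (vertical axis) of the 10 members at the 12 stages (horizontal axis), 1 point per array by sex label and a bar at each stage mean, from each gene's brightest probe set; every panel spans the same number of log2 units. *Tead2*, *Tead1* and *Yap1* are lower at E19.5 than at E10.5, with *Tead2* and *Yap1* highest at E12.5, whereas *Wwtr1* and *Ctgf* are highest in adult hearts.

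*Tead2* and *Tead1*, which carry YAP and TAZ to DNA, were higher in the embryonic heart than in the young adult at all 10 embryonic days (adjusted p under 0.05), as were 9.99% of all probe sets. *Tead2* (chr7:45215792-45233468) measured 7.73, 7.80 and 7.75 in the 3 E10.5 arrays, 8.17, 7.96 and 8.14 at E12.5, 6.51, 6.46 and 6.71 at E19.5, and 4.82, 5.23 and 4.29 in young adult. The embryonic arrays lay above every adult array, and the young adult mean (4.78 ± 0.47, SD, n = 3) was below the limit of 5 that the study used to call a probe set expressed. At E10.5 *Tead2* exceeded young adult by 2.98 (log2, SE 0.151), or 7.90-fold, with a limma adjusted p of 7.18e-17. Its difference passed the study's limits (adjusted p under 1e-05, log2 difference over 2 and a stage mean over 5) at 8 of 10 embryonic days, E10.5 to E17.5. *Tead1* (chr7:112679356-112906784) measured 9.89, 9.92 and 9.92 at E10.5, 8.92, 8.70 and 8.80 at E19.5, and 7.44, 7.61 and 7.65 in young adult. The 3 stages did not overlap. Its E10.5 difference of 2.34 (SE 0.185, adjusted p 3.16e-12 in limma) was 5.07-fold, and *Tead1* passed the study's limits at 4 days, E10.5 to E13.5. Of all probe sets, 1.23% passed these limits as higher at 8 or more days and 2.8% at 4 or more. *Tead1* and *Tead2* were the 2 members, of 10, called at these limits at E10.5, where 4.43% of all probe sets were called higher and 2.1% lower. These shares are of all 45101 probe sets, of which 20685 had a stage mean above 5, as all 10 members did. Only those could pass the study's limits. Shares over several days were not analysed for those 20685 alone.

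The dimmer probe set of *Tead1* had no stage mean above 5 (4.46 at E10.5 and 3.31 in young adult), so that its differences are near the limit of detection. It exceeded young adult by 1.14 (SE 0.192, adjusted p 7.35e-06 in limma) at E10.5 and by 0.34 at E19.5, where it did not pass (adjusted p 0.201). *Tead4*, the third TEAD gene among the members, was read near the limit of detection. It measured 4.27, 4.37 and 4.78 at E10.5 and 5.00, 5.18 and 5.29 in young adult, a difference of -0.68 (SE 0.178, adjusted p 0.00162), and no stage mean was above 5.16. Its other probe set did not pass at E10.5 (-0.29, adjusted p 0.083). With the hybridization controls as a covariate the E10.5 difference of *Tead4* turned to 0.18 (adjusted p 0.737).

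Against young adult, the coactivator gene *Yap1* was higher in the embryonic heart and *Wwtr1*, which encodes TAZ, was lower. *Yap1* (chr9:7931999-8004638) measured 9.09, 9.04 and 9.12 at E10.5, 7.94, 7.62 and 7.78 at E19.5, and 7.49, 7.41 and 7.19 in young adult. Every embryonic array was above every young adult array. The difference was 1.72 (SE 0.173, adjusted p 6.29e-10 in limma) at E10.5, passed the test at 9 of 10 days (13.1% of all probe sets were higher at 9 or more), and was 0.42 (adjusted p 0.0705) at E19.5. The second *Yap1* probe set exceeded its own adult level by 2.10 at E10.5, past the study's limits, and differed from it by -0.10 (adjusted p 0.787) at E19.5. Its stage mean was above 5 at the first 3 days alone, and 4.13 in young adult, so its later values lie near the limit of detection.

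*Wwtr1* (chr3:57455644-57575910) measured 8.21, 8.22 and 7.86 at E10.5, 7.58, 7.10 and 7.81 at E15.5, 8.57, 8.53 and 7.55 at E19.5, and 9.26, 8.78 and 9.06 in young adult. No embryonic array reached the young adult range. It was lower than young adult by the adjusted p of 0.05 at all 10 embryonic days, most at E15.5 (-1.53), and its other 2 probe sets, each with a stage mean above 5 at 5 of 12 stages, were also lower at all 10, as were 6.93% of all probe sets. Of these other 2, 1 passed the study's limits as lower at 2 days, with its largest difference at E15.5 (-2.19). By the brightest probe set, the difference was -0.94 at E10.5 (SE 0.280, limma adjusted p 0.00479) and -0.82 at E19.5 (adjusted p 0.026). The E19.5 call rested on the mixed-sex array: without it the difference was -0.48 (adjusted p 0.225). It also lost the threshold without the female (-0.71, adjusted p 0.0965) or the mixed (-0.80, adjusted p 0.0632) young adult array. The summed intensity of 8 endothelial marker genes was 995.9 in that E19.5 mixed-sex array against 1624 and 1640 in the female and male arrays, and its part in the *Wwtr1* value was not tested. The E10.5 difference did not pass with the change of sample titles that falls at E16.5 as a covariate (-0.998, adjusted p 0.135). In this fit the title term rests on the E16.5 female array against its male and mixed arrays, so title and sex cannot be told apart.

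*Lats2*, the kinase that phosphorylates YAP and TAZ, and *Vgll4*, which competes with YAP for TEAD, changed little. *Lats2* measured 7.01, 7.02 and 7.15 at E10.5 and 6.68, 6.80 and 6.32 in young adult, a difference of 0.46 (SE 0.238, adjusted p 0.0911). It passed the test as higher at 7 of 10 days, by at most 0.78 (E14.5), where 19.3% of all probe sets were higher at 6 or more. Its male array at E17.5 (5.64) lay below the female (7.22) and mixed (6.95) ones. Of its 6 probe sets, 2 exceeded a stage mean of 5, and the other of these passed at no day. Among the 4 with no stage mean above 5, whose differences are near the limit of detection, one was lower than young adult at 6 days (-0.63 at E10.5, adjusted p 0.00803), one was higher at 2 days (1.42 at E19.5, adjusted p 0.000235) and the other two passed at none. *Vgll4* measured 6.91, 6.87 and 6.79 at E10.5 and 6.62, 6.78 and 6.68 in young adult, and was highest at E13.5 (7.31 ± 0.17, SD, n = 3), where it exceeded young adult by 0.62. It was higher at 6 days, where 19.3% of all probe sets were higher at 6 or more. The median of the 20685 probe sets with a stage mean above 5 was itself 0.41 higher at E10.5 than in young adult, and *Vgll4* (0.16) lay below that shift; with the arrays centred on their medians it was lower at E10.5 (-0.36, adjusted p 0.0242). Relative to the same shift the E10.5 differences were 2.57 for *Tead2*, 1.94 for *Tead1*, 1.31 for *Yap1*, 0.05 for *Lats2*, -1.35 for *Wwtr1* and -2.01 for *Ctgf*.

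**Figure D2:**
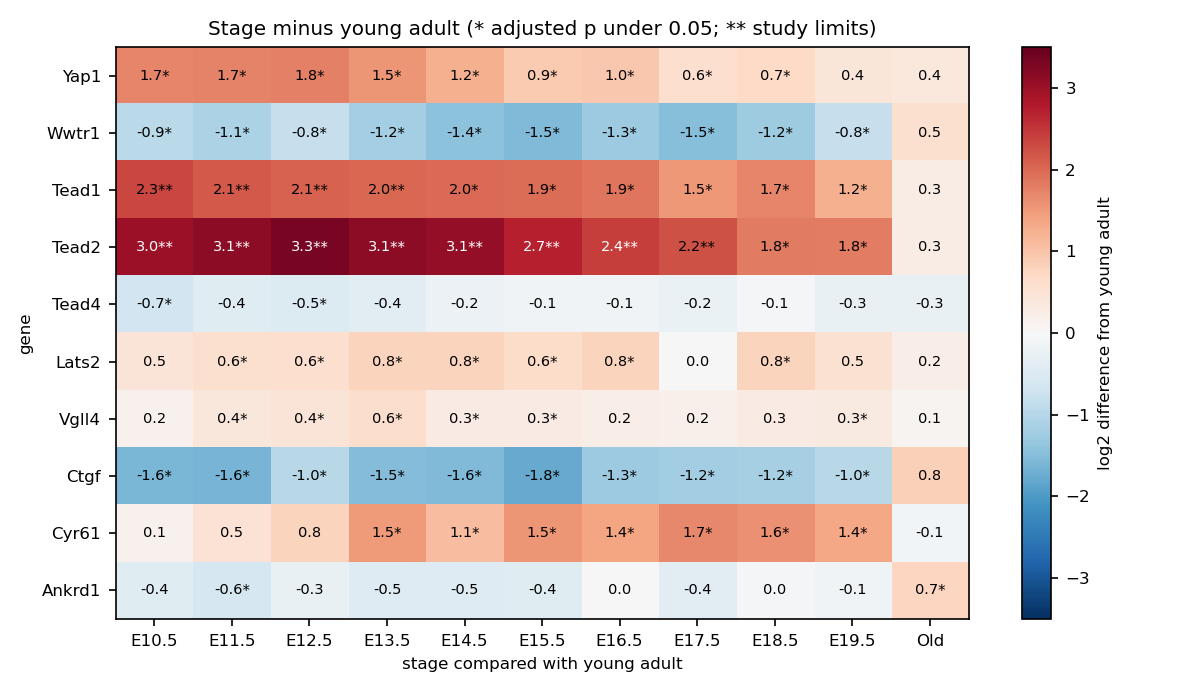
Log2 difference of each embryonic stage and of old adult (columns) from young adult for the 10 members (rows); color gives the size, 1 asterisk an adjusted p under 0.05 in limma and 2 asterisks the study's limits. Each gene is read from its brightest probe set, and by these *Tead2* and *Tead1* hold every pair of asterisks, with the highest value for *Tead2* at E12.5 (3.3).

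The 3 target genes differed among themselves. *Ctgf* (chr10:24595442-24598683), a secreted matrix-associated protein, was lower than young adult at all 10 embryonic days. It measured 8.84, 9.11 and 8.60 at E10.5, 8.89, 8.78 and 8.43 at E15.5, 10.06, 9.76 and 8.59 at E19.5, and 10.71, 10.43 and 10.22 in young adult. All embryonic arrays lay below the young adult arrays. At E10.5 the difference was -1.61 (SE 0.312, adjusted p 6e-05 in limma), or 3.04-fold lower, and it was largest at E15.5 (-1.75). At E19.5 it was -0.98 (adjusted p 0.0165), and without the mixed-sex array of that stage -0.55 (adjusted p 0.198); without the female young adult array it was -0.85 (adjusted p 0.0699). With the title change as a covariate, a term that again rests on the E16.5 female array, the E10.5 difference was -1.45 (adjusted p 0.0526).

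*Cyr61* (chr3:145646971-145649985), a relative of *Ctgf*, had 4 probe sets in 2 pairs that disagreed. The brightest one measured 7.89, 7.51 and 8.38 at E10.5, 9.24, 9.12 and 9.06 at E19.5, and 8.14, 7.57 and 7.63 in young adult, so that E10.5 overlapped young adult and E19.5 lay above it. Its difference from young adult was 0.15 (adjusted p 0.741) at E10.5 and 1.36 (SE 0.372, adjusted p 0.00568) at E19.5. This brightest probe set passed as higher at 7 days from E13.5 on, where 19.3% of all probe sets were higher at 6 or more. Another probe set moved with it (-0.07 at E10.5 and 1.18 at E19.5). The other pair was highest in the first 3 days and passed there alone: one of them measured 7.45, 8.03 and 7.56 at E10.5, 7.15, 6.97 and 5.60 at E19.5, and 6.32, 5.78 and 6.16 in young adult. Its difference was 1.59 (SE 0.361, adjusted p 0.000381) at E10.5 and 0.48 (adjusted p 0.344) at E19.5. Which stretch of the transcript each probe set reads was not analysed here, so no direction is given for *Cyr61* as a gene.

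*Ankrd1* (chr19:36111965-36119844), a stress-responsive protein of the cardiomyocyte sarcomere and nucleus, measured 11.09, 10.90 and 11.07 at E10.5, 11.52, 11.26 and 11.20 at E19.5, and 11.06, 11.95 and 11.33 in young adult. The arrays of these stages overlapped. It passed against young adult at 1 day (E11.5, -0.58), while its second probe set was lower at 7 days (-1.08 at E19.5, SE 0.287, adjusted p 0.00423). That probe set measured 8.76, 8.14 and 8.17 at E19.5 and 9.28, 10.08 and 8.96 in young adult.

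**Figure D3:**
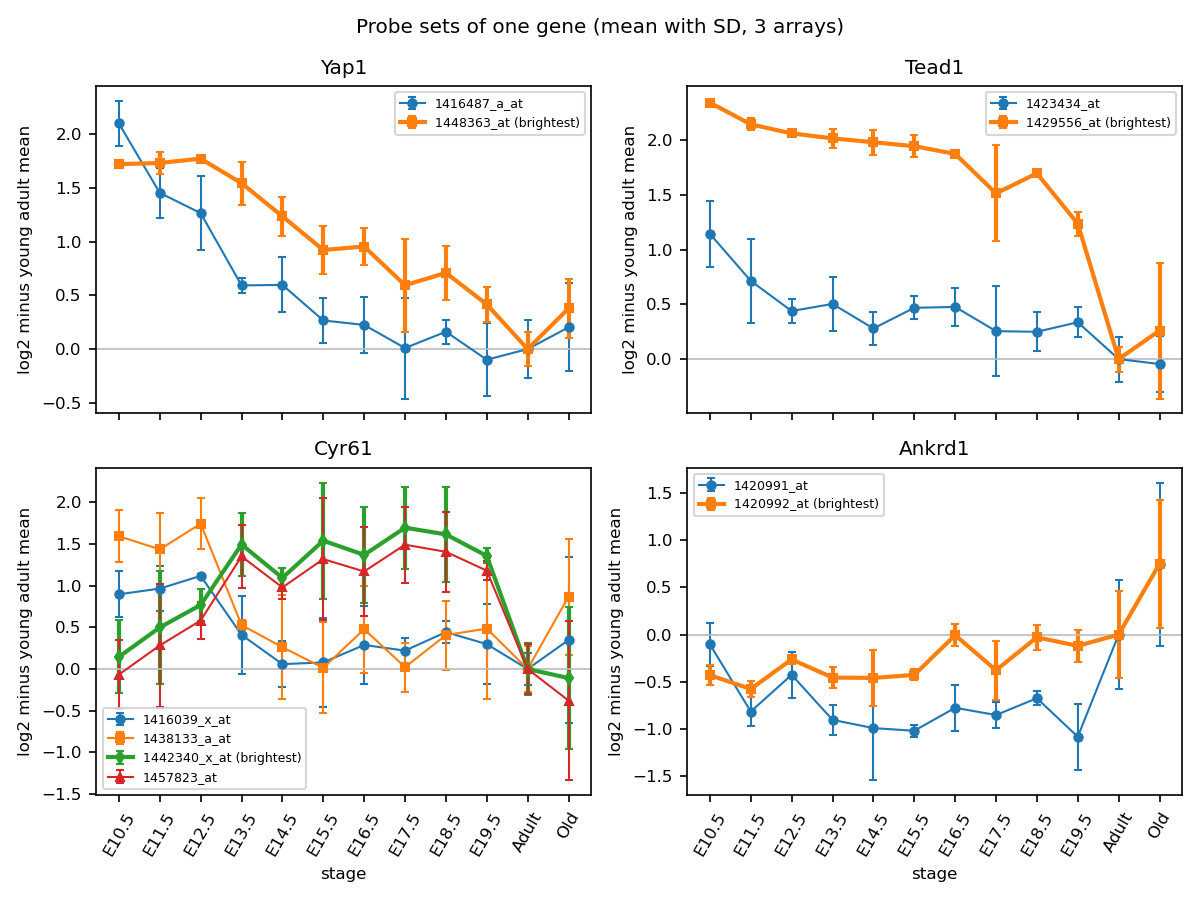
Stage mean less the young adult mean of the same probe set (log2, vertical axis, bars 1 SD, n = 3) at the 12 stages for all probe sets of *Yap1*, *Tead1*, *Cyr61* and *Ankrd1*; the thick line is the brightest probe set of a gene. Both probe sets of *Yap1* and of *Tead1* are higher at E10.5 than in young adult, with the thin line of *Yap1* nearer to its adult level from E13.5 on, and the 2 pairs of *Cyr61* cross at about E13.5.

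Over the main comparisons, 3 members were higher and 3 lower at E10.5 than in young adult at an adjusted p of 0.05, where 27.1% of all probe sets were higher and 35.9% lower. Among probe sets with a stage mean above 5, to which all 10 members belong, 48.5% were higher and 25.3% lower. The 3 higher were *Tead2*, *Tead1* and *Yap1*, and the 3 lower were *Ctgf*, *Wwtr1* and *Tead4*. At E19.5, 4 members were higher (*Tead2* by 1.78, *Tead1* by 1.24, *Cyr61* by 1.36 in its brightest probe set and *Vgll4* by 0.32) and 2 lower (*Ctgf* and *Wwtr1*), against a background of 15.5% and 13.6%, or 29.3% and 16.5% of the probe sets with a stage mean above 5. The *Vgll4* call there (adjusted p 0.0407) was lost without any 1 of 5 of the 6 arrays compared, at adjusted p values of 0.0705 to 0.114. With the *Gapdh* difference as a covariate, a setting chosen after seeing the data, the E19.5 calls of *Cyr61* (1.15, adjusted p 0.166), *Wwtr1* (-0.89, adjusted p 0.15), *Ctgf* (-0.84, adjusted p 0.236) and *Vgll4* (0.31, adjusted p 0.257) were lost. None passed the study's limits at E19.5, which 0.818% of probe sets passed as higher and 0.634% as lower, and each of the 10 members had a stage mean above 5 in at least 1 stage. The median member difference was 0.15 at E10.5 and 0.37 at E19.5, beside -0.19 and -0.04 over all probe sets and 0.41 and 0.13 over those with a stage mean above 5.

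Within the embryo, E10.5 was compared with E19.5, the last day before birth. *Yap1* was higher at E10.5 by 1.305 (SE 0.173, adjusted p 4.02e-07), *Tead2* by 1.20 (SE 0.151, adjusted p 1.46e-07) and *Tead1* by 1.11 (SE 0.185, adjusted p 1.48e-05 in limma). The E10.5 and E19.5 arrays did not overlap for 6 of the 10 members, these 3 among them. The share of all probe sets without overlap was not analysed here. *Cyr61* was lower by its brightest probe set (-1.21, adjusted p 0.00923) and higher by another (1.11, adjusted p 0.0136), and the first did not pass without the second E10.5 array (-1.002, adjusted p 0.0607). With the hybridization controls as a covariate its difference was -0.22 (adjusted p 0.822), with the title change -0.93 (adjusted p 0.369) and as the mean of the 4 probe sets -0.19 (adjusted p 0.605). The title term here too rests on the E16.5 female array. The other 6 members did not pass, with differences from -0.62 (*Ctgf*) to -0.08 (*Lats2*). Of these, *Wwtr1* (-0.12, adjusted p 0.735) was lower at E10.5 with the hybridization controls as a covariate (-1.28, adjusted p 0.000151). The 3 higher and 1 lower members stood beside 21.8% and 23.7% of all probe sets, and beside 39% and 23.3% of those with a stage mean above 5. None passed the study's limits, as 1.48% of probe sets did as higher and 0.698% as lower. *Ctgf* became lower at E10.5 than at E19.5 without the E19.5 mixed-sex array (-1.06, adjusted p 0.00783).

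To follow the members day by day, a straight line was fitted over the 30 embryonic arrays. It had a slope per day of -0.17 for *Tead2* (SE 0.0156, adjusted p 8.38e-11), -0.16 for *Yap1* (SE 0.0138, adjusted p 1.41e-11) and -0.10 for *Tead1* (SE 0.0115, adjusted p 1.14e-08 in limma). Upward slopes passed for *Cyr61* (0.14), *Tead4* (0.05) and *Ankrd1* (0.05), with probe sets of *Cyr61* and *Ankrd1* that passed in the opposite direction (-0.16 and -0.06). With the hybridization controls as a covariate the slopes of *Cyr61* (0.0098, adjusted p 0.864) and *Tead4* (0.0042, adjusted p 0.903) did not pass, nor did the other *Tead4* probe set (0.0202, adjusted p 0.0953). The *Ankrd1* slope did not pass with the title change as a covariate (0.0349, adjusted p 0.194). *Wwtr1* showed no passing slope (-0.0219, adjusted p 0.431). These 3 upward and 3 downward members stood beside 42.1% and 25.4% of all probe sets, and beside 28.8% upward and 45% downward among those with a stage mean above 5. No single daily step passed for any of the 10 members, and the lowest adjusted p was 0.275, at E19.5 against E18.5; of all probe sets, 1.79% rose and 3.09% fell in at least 1 step. At an unadjusted p under 0.05, 0 to 2 members changed in a step, and the share of all probe sets at that limit was not analysed here. In the order of the stage means, *Tead2* was highest at E12.5 (8.09), above E11.5 by more than the larger SD, and E11.5, E13.5 and E14.5 (7.92, 7.90 and 7.86) did not differ from one to the next beyond it. For *Yap1* the first 4 days, from 9.13 to 8.91, did not differ from one to the next beyond the SD, and E14.5 (8.60) lay below them by more. For *Tead1* the gap between E19.5 (8.81) and the adult stages (7.83 and 7.57) was the widest.

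Old adult hearts were compared with young adult to ask what changes with age. *Ankrd1* was the 1 member of 10 that passed (3.83% of all probe sets were higher and 3.13% lower, or 7.08% and 3.44% of those with a stage mean above 5), and none passed the study's limits (0.00443% higher and 0.00222% lower). It measured 11.72, 12.97 and 11.89 in old and 11.06, 11.95 and 11.33 in young adult, so the groups overlapped, and the difference was 0.75 (SE 0.219, adjusted p 0.034 in limma). The male array was the highest in both groups. So was the summed intensity of 5 skeletal muscle genes, at 2071 in the old male array against 450.1 and 370.2 in the female and mixed ones, and at 1586 in the young male array against 469.5 and 815.4. Of these 5, *Acta1*, which the heart also expresses, was the 1 with a stage mean above 5, and their part in the *Ankrd1* value was not tested. Without the old male array the difference was 0.36 (adjusted p 0.316), without the young female array 0.55 (adjusted p 0.134) and without the young mixed array 0.69 (adjusted p 0.105). With the spread taken from the 2 adult stages alone, the *Ankrd1* difference had an adjusted p of 0.357 in limma. *Ctgf* measured 11.55, 12.03 and 10.32 in old adults, with a difference of 0.84 (adjusted p 0.0951), and without the old mixed-sex array 1.33 (adjusted p 0.00817). In that array the summed intensity of 8 fibroblast genes was 7446 against 14520 and 14720 in the old female and male arrays, that of the 8 endothelial genes 3369 against 2075 and 2445, and that of the 6 erythroid genes 551 against 136.2 and 125.5. Their part in the *Ctgf* value was not tested. *Wwtr1* measured 9.23, 9.69 and 9.82 (difference 0.55, adjusted p 0.237). *Tead2* and *Tead1* differed by 0.26 each and did not pass, although *Tead2* did without the young male array (0.48, adjusted p 0.0497) and *Tead1* without the old mixed-sex array (0.58, adjusted p 0.0354). The summed intensity of 12 immediate early genes, which respond within minutes to stress or handling, was 2937, 7783 and 4927 in the old female, male and mixed arrays and 1665 to 2746 in young adult. With its logarithm as a covariate the *Ankrd1* difference was 0.63 (adjusted p 0.0855).

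Males and females were compared over 9 pairs of arrays of the 9 stages after E12.5, keeping stage as a block. None of the 10 members passed (lowest limma adjusted p 0.707; 0 at an unadjusted p under 0.05), where 22 probe sets in all, 0.0488%, did. For *Tead2* the male array was higher by 0.40 in young adult.

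The rest of the pathway was described by lists. Of 22 genes of the kinase cascade and its upstream regulators, 13 were higher, 3 lower and 6 did not pass at E10.5 against young adult, with a median difference of 0.61 beside 0.41 over probe sets with a stage mean above 5, of which 48.5% were higher and 25.3% lower. *Ajuba*, a LIM protein that binds and restrains LATS kinases, had the largest difference of the list and was its 1 gene past the study's limits (3.33, SE 0.212, adjusted p 2.02e-14). The MST kinase genes *Stk4* and *Stk3* were higher by 1.80 and 1.47, *Lats1* by 1.43 and *Nf2*, the upstream activator merlin, by 1.23, while *Rassf1* was lower (-0.96) at E10.5. Genes of the lists other than *Ajuba*, *Amot*, *Crim1*, *Nov* and *Wisp1* were picked as examples after their values were seen. Between E10.5 and E19.5, 12 were higher at E10.5, 2 lower and 8 did not pass (39% higher and 23.3% lower among probe sets with a stage mean above 5), and *Amot*, an angiomotin that holds YAP in the cytoplasm, was higher by 2.27 (adjusted p 1.43e-11). Against young adult at E19.5 the counts were 8 higher, 1 lower and 13 not passing (29.3% higher and 16.5% lower among probe sets with a stage mean above 5), and in old adult 4, 0 and 18 (7.08% and 3.44%), with *Lats1* higher by 0.99 (adjusted p 0.00242).

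**Figure D4:**
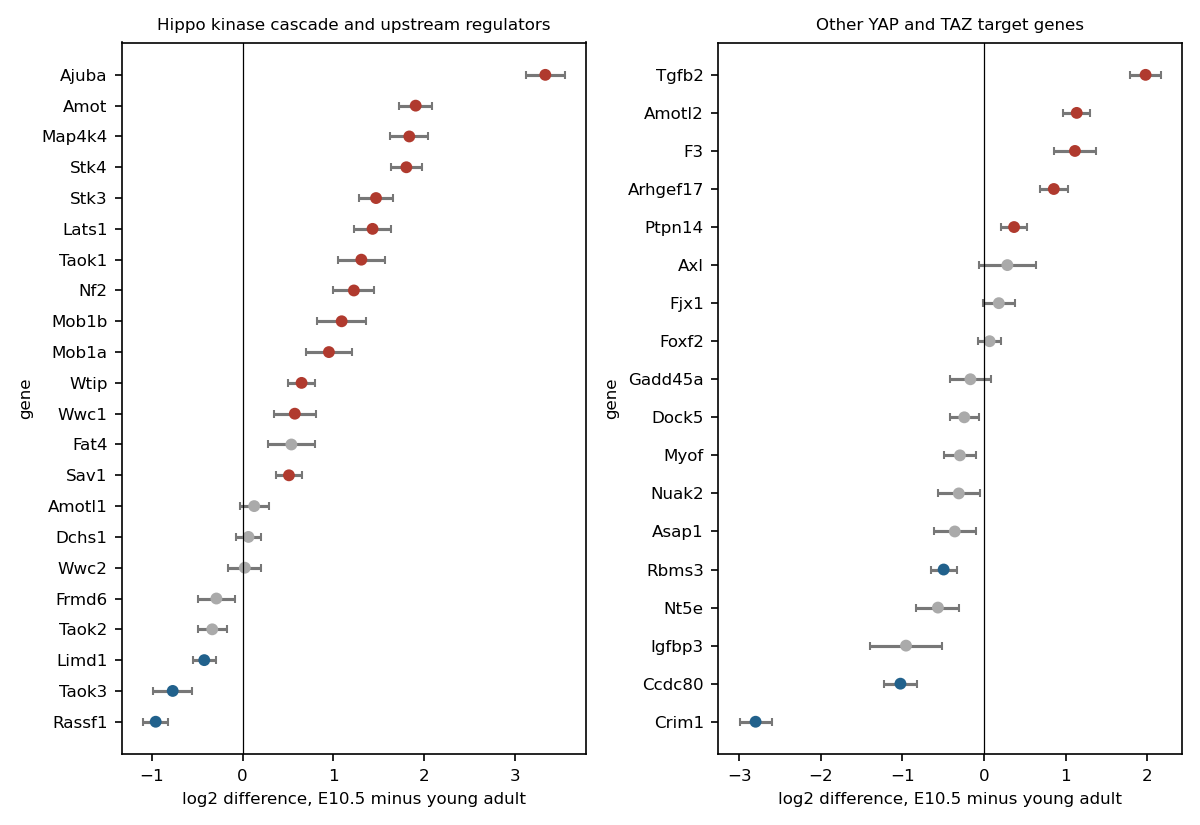
Log2 difference of E10.5 from young adult (horizontal axis, bars 1 SE) for 22 genes of the Hippo kinase cascade and its upstream regulators and 18 other target genes of YAP and TAZ (vertical axis); red points are higher and blue points lower at an adjusted p under 0.05 in limma, and gray points did not pass. *Ajuba* lies highest on the left and *Crim1* lowest on the right.

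Of the 18 other target genes, 5 were higher, 3 lower and 10 did not pass at E10.5 (median -0.21), beside the same 48.5% higher, 25.3% lower and median of 0.41. *Tgfb2*, a growth factor of valve formation, was higher by 1.98 and *Amotl2* by 1.14, and *Crim1*, a membrane regulator of growth factors, was lower (-2.80, adjusted p 2.18e-13). Against young adult, 2 were higher at E19.5 and 5 lower, beside 29.3% and 16.5%, and in old adult 2 were higher and 2 lower, beside 7.08% and 3.44%, with *Nuak2* higher by 1.47. Among 5 relatives of *Ctgf*, *Cyr61* and *Ankrd1*, *Nov*, a matrix protein of the same family as *Ctgf*, was lower at E10.5 than in young adult (-4.09) and than at E19.5 (-3.33), while its relative *Wisp1* was higher than in young adult by 3.30 at E10.5 and by 2.52 at E19.5. The other 3 (*Wisp2*, *Ankrd2* and *Ankrd23*) were lower at E10.5. Among the remaining TEAD and VGLL genes, *Vgll2* was lower at E10.5 (-1.13) and higher in old adult by 1.24 (adjusted p 0.00137), and *Tead3* did not pass at E10.5 (-0.45, adjusted p 0.054). The 10 proliferation genes were all higher at E10.5 than in young adult (median 4.26), and 9 of the 10 at E19.5.

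Genes with profiles most like a member were sought among 13177 probe sets by Pearson correlation over the 12 stage means. This is a description, since the points share their arrays and the change from embryo to adult. The closest to *Yap1* were *Golim4* (r = 0.998), *Tmtc4* and *Cnot7*, to *Tead1* *Whsc1*, *E2f3* (both 0.997) and *Ypel2*, and to *Tead2* *Smarcc1* (0.996), *Wdr6* and *Hif1a*. *Wwtr1* was closest to *Arhgdia* (0.990), *Litaf* and *Abhd2*, and *Ctgf* to *Psap* (0.986), *Selm* and *Flt1*. The highest values were lower for *Cyr61* (*Fbxo10*, 0.974), *Tead4* (*Nrarp*, 0.950), *Ankrd1* (*Il1r1*, 0.941), *Vgll4* (*Dpp4*, 0.927) and *Lats2* (*Tbc1d23*, 0.907).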

How the data were processed

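Messenger RNA of 36 hearts or heart pools was measured on 1-color Affymetrix mouse genome arrays, 3 for each of 12 stages. The deposited values are log2 intensities per probe set that the authors obtained by the robust multi-array average (RMA), and the submitters' processing notes also name Affymetrix Expression Console and Partek 6.6. No values were renormalized. The 36 arrays limit the precision. In the stage comparisons, p-values rest on the spread between the 3 animals or pools of a stage, estimated over all 12 stages together. A pair of stages with a wider spread, such as young and old adult for *Ankrd1*, is therefore tested against a narrower one.

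All 45101 probe sets were fitted in limma 3.58.1 (R 4.3.3) with 1 mean per stage, and p-values were adjusted by Benjamini-Hochberg over all probe sets in each comparison. The study's limits were an adjusted p under 1e-05, a log2 difference over 2 and a stage mean over 5; an adjusted p under 0.05 was the second rule. Slopes per embryonic day used 30 arrays, and sexes were compared over 9 pairs with stage as a block. A gene was read from its probe set with the highest mean over all arrays, and others are given where they differ. Genes of the lists are named where they passed the study's limits, at most 4 in each direction, and the 3 most similar profiles of each member; the other list genes given are examples chosen after their values were seen. Members, lists and rules were chosen with earlier results of these data known. Where a symbol in the file had lost letters, a list gene was matched by gene ID, and Myh6, Plin1, Serpina1a and Myh8 were not analysed here. The fit was tested on simulated data: of 113 probe sets changed by 2.5 at E10.5, 99.1% were recovered against young adult, and of 87 changed by 1, 72.4%. There 200 of 45101 probe sets were changed, and each probe set had the same spread at every stage. In the measured comparison 27.1% of probe sets were higher and 35.9% lower, so these rates do not carry over to it.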

Additional observations from a re-analysis of the deposited data

Results flagged for a closer look

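In 2 members 1 of the 9 male minus female differences (log2, 1 per stage from E13.5 to old adult) stood apart from the other 8 by Dixon's test, which chance does in about 1 of 20 groups, and 10 members were looked at. For *Tead2* it was the young adult pair, with a difference of 0.4049 (male 5.23, female 4.82). For *Lats2* it was the E17.5 pair, with a difference of -1.5833 (male 5.64, female 7.22). What set these values apart was not tested.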

How the results depend on the processing

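*Tead2*, *Tead1* and *Yap1* were higher at E10.5 than in young adult and than at E19.5, and fell with embryonic day, at an adjusted p under 0.05 under every alternative run. The counts of members called were unchanged by the replicate block on the sex label (6 and 6 at an adjusted p of 0.05 for E10.5 and E19.5 against young adult, 4 for E10.5 against E19.5, 1 for old adult and 6 for the slope), and the deviations of arrays with the same label correlated at 0.20, 0.01 and 0.10 between E19.5 and young adult, so the labels were not taken as pairs; male against female stayed at 0 with no replicate block. The study's limits called 2 members at E10.5 against young adult, and 1 with quantile normalization or the mean of all probe sets of a gene; a log2 limit of 1 gave 2 at E19.5 and 2 between E10.5 and E19.5, against 0. At an adjusted p of 0.05, E10.5 against E19.5 gave 7 members with quantile normalization and 8 with median centring, which shifted arrays by -0.32 to 0.31 (log2). The share of all probe sets called was not analysed under any changed setting, so these counts have no background of their own. Choices made after seeing the data were the *Gapdh* covariate, under which E19.5 against young adult gave 2 members, and the immediate early covariate, under which old adult gave 0; leaving out the E17.5 mixed-sex array, also chosen after seeing the data, kept the slope count within 1.5 times. Old adult also gave 0 with quantile normalization, median centring, only the 2 stages compared, the mean of all probe sets or the hybridization controls as a covariate. Leaving out 1 array gave 6 to 7 members at E10.5, 3 to 6 at E19.5, 3 to 5 between E10.5 and E19.5 and 0 to 3 in old adult, and 2 to 2, 0 to 1, 0 to 0 and 0 to 0 at the study's limits.

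Directions turned for *Vgll4* at E10.5 against young adult (-0.34 with quantile normalization, -0.36 with median centring) and in its slope (0.0287 with quantile normalization), for *Tead4* at E10.5 (0.18, hybridization controls), and for the slope of *Wwtr1* (0.11, hybridization controls). They also turned between probe sets: *Lats2* at E10.5 against young adult (-0.63) and in its slope (0.0411 and 0.0829), both from probe sets with no stage mean above 5, *Cyr61* between E10.5 and E19.5 (1.11 and 0.60) and in its slope (-0.159 and -0.084), and *Ankrd1* between E10.5 and E19.5 (0.98) and in its slope (-0.0581, and -0.0066 as the mean of its probe sets). Listed here are the turns in which the main fit or the changed fit passed the test. Directions also turned where neither fit passed, and those turns are not listed. Among them, the *Cyr61* difference of old from young adult ran from -0.44 to 0.87 over the settings and probe sets. The *Tead4* difference of E19.5 from young adult ran from -0.48 to 0.13. The cause was not tested.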
